A study of Mus musculus with 670 samples.

Results

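The cells described here are skeletal cells of 2-month-old male mice that were split by 1 gene, Cnmd. Cnmd encodes chondromodulin, a glycoprotein made by cartilage cells. Of 670 wells of the series, those of 2 months filled 3 plates, numbered 1, 3 and 4, with 96, 96 and 95 wells. Of these, 15, 70 and 69 passed as cells, with 1000 genes or more found, 50000 gene reads or more, and less than 20% of reads from the mitochondrial genome. Members were chosen by their measured level of Cnmd. Cnmd-positive cells had at least 10 CPM of it (reads scaled to 1000000 gene reads per cell), and there were 7, 50 and 49 of them on plates 1, 3 and 4. Cnmd-negative cells had 0 reads of Cnmd, and there were 8, 18 and 16, or 42 in all. The 6 cells between the limits were left out. Since the level of Cnmd made the classes, it is given as a description and no test rests on it.

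All cells came from long bones that were broken down by force and enzymes, stained with antibodies and sorted by flow cytometry as populations of skeletal stem cells. They were not cultured or treated before SmartSeq2, a full-length RNA sequencing of single cells in wells. No strain or genotype is given in the labels. Both classes lay on the same 3 plates, which carry batches 4, 5 and 1. The titles carry an unexplained code for each plate and the term ocSSC, and no label names an animal. Each class is therefore 1 sample, no test between the classes was made and no p-value is given. The spread over plates is given as a description.

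Chondromodulin sits in the cell membrane as a precursor, and its outer part is cut off and kept in the cartilage matrix, where it is known as an inhibitor of vessel growth. Cartilage has no vessels: its cells, chondrocytes, lie in a matrix of collagen II fibrils, with collagens IX and XI on and in them, filled by the proteoglycan aggrecan. In long bones such cells form the growth plate and the joint surface, while osteoblasts lay down bone matrix built on collagen I. Sorted skeletal stem cells are a population from which cartilage, bone and stroma can form, so a sort can hold cells that express programs of each.

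In the GENCODE annotation of GRCm38, Cnmd spans chr14:79637690-79662170, minus strand, and the other 3 genes shown here lie on other chromosomes. Col9a1, a chain of collagen IX, spans chr1:24177610-24252684, plus strand. Matn3, the matrix adaptor matrilin-3, spans chr12:8947929-8972028, plus strand. Epyc, the small leucine-rich proteoglycan epiphycan, spans chr10:97644068-97682454, plus strand. The 250 bases before the RefSeq transcription start of each (build GRCm38.p6) are shown because the classes were made by Cnmd, and Col9a1, Matn3 and Epyc differed between them by large factors. They were searched on both strands for ACAATG and ACAAAG, 6-base sequences bound by SOX factors, and capitals mark each match. The stretches are chr14:79662184-79662433, minus strand for Cnmd, chr1:24177360-24177609, plus strand for Col9a1, chr12:8947679-8947928, plus strand for Matn3 and chr10:97643818-97644067, plus strand for Epyc.
Cnmd: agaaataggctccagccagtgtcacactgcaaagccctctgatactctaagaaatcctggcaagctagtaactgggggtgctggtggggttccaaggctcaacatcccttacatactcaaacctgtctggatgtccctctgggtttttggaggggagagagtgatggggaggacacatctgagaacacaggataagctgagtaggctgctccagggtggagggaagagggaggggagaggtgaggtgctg
Col9a1: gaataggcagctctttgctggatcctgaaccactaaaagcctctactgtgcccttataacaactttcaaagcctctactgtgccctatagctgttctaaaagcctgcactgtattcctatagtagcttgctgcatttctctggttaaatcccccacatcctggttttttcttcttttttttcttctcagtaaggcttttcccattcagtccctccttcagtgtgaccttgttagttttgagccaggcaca
Matn3: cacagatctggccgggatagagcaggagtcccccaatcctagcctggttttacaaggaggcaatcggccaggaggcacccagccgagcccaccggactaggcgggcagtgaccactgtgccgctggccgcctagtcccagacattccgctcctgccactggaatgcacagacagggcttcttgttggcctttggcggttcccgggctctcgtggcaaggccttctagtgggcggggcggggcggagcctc
Epyc: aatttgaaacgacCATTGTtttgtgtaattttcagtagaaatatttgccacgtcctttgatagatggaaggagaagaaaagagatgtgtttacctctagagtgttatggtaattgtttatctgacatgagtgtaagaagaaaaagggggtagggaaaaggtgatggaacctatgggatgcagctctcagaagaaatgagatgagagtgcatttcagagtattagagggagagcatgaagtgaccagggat
The stretch of Epyc held 1 match, on the strand opposite to the gene, and those of Cnmd, Col9a1 and Matn3 held 0. RefSeq gives a further start for 2 of these genes: the 250 bases before that of Epyc (chr10:97646853-97647102, plus strand) held 3 matches and those before that of Col9a1 (chr1:24194953-24195202, plus strand) held 0. Of 32851 RefSeq promoter stretches of this length, 25.24% held at least 1 match. A match says only that these letters occur in the window.

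The libraries differed between plates and between classes. Cnmd-positive cells held a median of 791110 gene reads (67638 to 3486036) and 1884.5 genes, and Cnmd-negative cells a median of 513999.5 gene reads (62919 to 3563660) and 1382 genes. With every cell thinned at random to 50000 reads, the medians were 1388.5 genes in Cnmd-positive and 1032 genes in Cnmd-negative cells. Mitochondrially encoded genes took a median of 0.92% of reads in Cnmd-positive and 0.95% in Cnmd-negative cells. Plate 1 held few cells, and 46.2% of the reads of its 8 Cnmd-negative cells came from 1 cell, so each leading value is given by plate. No pair of index sequences occurred on more than 1 of the plates, and 0 passing cells had values identical to those of another.

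Most passing cells were Cnmd-positive. They made up 68.8% of them (exact 95% binomial interval 60.9% to 76.04%), with 46.7% on plate 1 (21.3% to 73.4%), 71.4% on plate 3 (59.4% to 81.6%) and 71.01% on plate 4 (58.8% to 81.3%). These intervals cover counting error only, here and below, and PCR reads without molecular identifiers are not independent molecules. Most positive cells lay far above the limit: Cnmd ranged from 11.5 to 21019.6 CPM with a median of 5128 CPM, and 92 cells had at least 1000 CPM. Just inside the limit lay cells with 11.5, 14.8, 28.3, 39.2 and 164.7 CPM. Just outside it lay the 6 cells left out, with 1.55, 1.62, 1.94, 3.00, 6.10 and 8.22 CPM from 1 to 6 reads.

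The Cnmd-positive class held the markers of cartilage cells that had not been used to choose it. Of 12 other cartilage markers (Col2a1, Col9a1, Col9a2, Col9a3, Col11a1, Col11a2, Acan, Matn1, Matn3, Hapln1, Comp and Sox9), a Cnmd-positive cell held a median of 11 at 50000 reads, with a range of 3 to 12. At least 4 were held by 99.1% of Cnmd-positive cells (94.9% to 99.98%), which is all but 1. A Cnmd-negative cell held a median of 4, with a range of 0 to 8, and 23 of 42 held at least 4 (54.8%, 38.7% to 70.2%). Cells without a read of Cnmd were thus not all cells without a cartilage program. The Cnmd-negative counts fell into a low range, with 15 cells holding 0 or 1 marker, and a middle range, with 22 cells holding 4 to 7. Only 4 cells held 2 or 3 markers. By plate, 2 of 8, 14 of 18 and 7 of 16 Cnmd-negative cells of plates 1, 3 and 4 held at least 4.

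**Figure D1:**
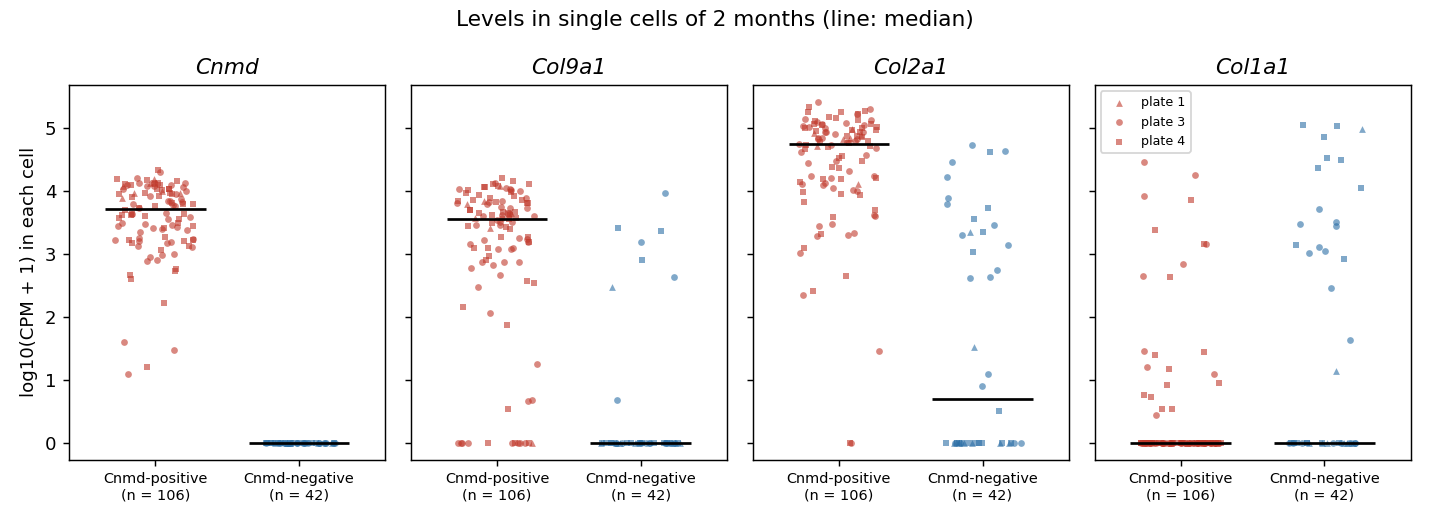
Levels of Cnmd, Col9a1, Col2a1 and Col1a1 in single cells, as log10(CPM + 1) on the y axis, with Cnmd-positive cells at the left and the 42 Cnmd-negative cells at the right of each panel, point shapes for plates and a line at the median. Col2a1 and Col9a1 are high in most Cnmd-positive cells and reach high values in a part of the Cnmd-negative cells, and Col1a1 lies at 0 in most cells of either class and above 10000 CPM in 2 Cnmd-positive cells, both of plate 3, and 8 Cnmd-negative cells, 1 of plate 1 and 7 of plate 4.

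To compare the classes across genes, reads were summed per class and plate and given as CPM, and each of the 3 plates counted equally in the class mean. Folds are log2((Cnmd-positive mean + 1)/(Cnmd-negative mean + 1)) in CPM, a scale that understates the change of low genes. A gene is called higher or lower here when its mean reached 10 CPM in the higher class and was 2-fold or more that of the other class, with 1 sign on each of the 3 plates. Of 9059 genes tested, 1442 were higher in Cnmd-positive cells (15.9%) and 434 lower (4.79%). Of these calls 76.9% were higher, but 64.9% with median-of-ratios size factors and 59.8% with equal numbers of cells per plate, nearest in gene number. The median log2 fold of all 10735 genes with at least 5 CPM was 0.38 by totals, 0.43 with TMM factors and -0.04 with median-of-ratios size factors. Values of single genes are to be read against that shift. Some calls have a plate with few reads: at most 3 reads in each class lay on at least 1 plate for 4.23% of the higher and 39.86% of the lower genes. Among the lower genes of the lists below these were Csf1, Cxcl12, Ebf1, Lepr, Mmp13, Nfatc1, Postn and Sox6. Their sign on plate 1 rests on 1 to 3 reads in Cnmd-negative cells and 0 in Cnmd-positive cells. That of Lepr on plate 4 rests on 3 reads in Cnmd-positive and 2 in Cnmd-negative cells. With a plate left out, the rule was met by more genes. Without plate 1, 2843 of 9538 genes were higher and 1088 lower. Without plate 3 these numbered 2100 and 948 of 8432, and without plate 4, 2153 and 920 of 8217. Counts of a list with a plate left out are to be read against these numbers, not against 15.9% and 4.79%.

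All 7 cartilage collagens tested were higher in Cnmd-positive cells, against 15.9% of all genes, and their median log2 fold was 3.85 against 0.38 for all genes (3.01 without plate 1 and 4.95 without plate 4). Col2a1, the chain of collagen II, had 56194, 56318 and 69902 CPM in Cnmd-positive cells of plates 1, 3 and 4, against 1032, 13128 and 4823 CPM in Cnmd-negative cells. Its plates did not overlap between the classes, and the log2 fold was 3.26, 4.43 without plate 3. Collagen IX, which coats these fibrils, has 3 chains, and all were higher. Col9a1 had 4687, 3359 and 5689 CPM in Cnmd-positive cells of plates 1, 3 and 4, against 5.70, 251.9 and 410.1 CPM in Cnmd-negative cells, a log2 fold of 4.36, 3.77 without plate 1 and 4.95 without plate 4. Col9a2 had 4358, 2443 and 2779.6 CPM in Cnmd-positive cells of plates 1, 3 and 4, against 47.7, 66.5 and 326 CPM in Cnmd-negative cells, a log2 fold of 4.43, 3.73 without plate 1 and 5.87 without plate 4. Col9a3 had 4441, 4850.2 and 6403 CPM in Cnmd-positive cells of plates 1, 3 and 4, against 106.3, 20.1 and 143.2 CPM in Cnmd-negative cells, a log2 fold of 5.85. For each of the 3 chains the lowest Cnmd-positive plate lay above the highest Cnmd-negative plate. The share of all genes that separate in this way is not given here.

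Collagen XI, the fibril core, and collagen XXVII, a cartilage fibril collagen of growing bone, differed in the same direction. Col11a2 averaged 2572 ± 638 CPM in Cnmd-positive cells against 220.7 ± 321 CPM in Cnmd-negative cells (SD over 3 plates), a log2 fold of 3.54, 2.76 without plate 1 and 6.12 without plate 4. Col11a1 averaged 5491 ± 924 CPM in Cnmd-positive cells against 1655 ± 457 CPM in Cnmd-negative cells, a log2 fold of 1.73. Col27a1 had 1391, 568 and 1165 CPM in Cnmd-positive cells of plates 1, 3 and 4, against 0.13, 180.1 and 33.2 CPM in Cnmd-negative cells, a log2 fold of 3.85, 3.01 without plate 1 and 6.18 without plate 3. Detection in single cells separated the classes for the collagen IX chain that marks them. Col9a1 was found at 50000 reads in 87.7% of Cnmd-positive cells (79.9% to 93.3%, 88.7% with all reads) and 16.7% of Cnmd-negative cells (6.97% to 31.4%, 19.05% with all reads). Collagen II was more widely held, with Col2a1 in 98.1% of Cnmd-positive cells (93.4% to 99.8%, 98.1% with all reads) and 50% of Cnmd-negative cells (34.2% to 65.8%, 52.4% with all reads).

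Of 21 cartilage matrix proteins tested, 13 were higher in Cnmd-positive cells (11 without plate 1 and 15 without plate 3) and 4 lower, which is 61.9% and 19.05% of the list against 15.9% and 4.79% of all genes, with a median log2 fold of 2.10 (1.05 without plate 1 and 3.63 without plate 3). Aggrecan, the large proteoglycan that holds water in cartilage, was among them, but its difference was uneven. Acan had 2910.4, 1359 and 1775 CPM in Cnmd-positive cells of plates 1, 3 and 4, against 0.13, 687 and 896 CPM in Cnmd-negative cells, a log2 fold of 1.93, 0.98 without plate 1 and 2.63 without plate 4, but not called without plate 1. On plate 1 Cnmd-negative cells held almost none of it, and on the other plates the classes were about 2-fold apart. Acan was held by 91.5% of Cnmd-positive cells (84.5% to 96.04%, 96.2% with all reads) and 33.3% of Cnmd-negative cells (19.6% to 49.5%, 42.9% with all reads). Hapln1, the link protein that ties aggrecan to hyaluronan, had 848, 501 and 743 CPM in Cnmd-positive cells of plates 1, 3 and 4, against 0, 40.4 and 11.03 CPM in Cnmd-negative cells, a log2 fold of 5.27, 4.54 without plate 1 and 6.93 without plate 3. Matn3 had 4902, 4412 and 4507 CPM in Cnmd-positive cells of plates 1, 3 and 4, against 0, 0 and 213.2 CPM in Cnmd-negative cells. Its 1933 reads in Cnmd-negative cells came from 1 cell, and it was found in 66.04% of Cnmd-positive cells (56.2% to 74.96%, 67.9% with all reads) and 2.38% of Cnmd-negative cells (0.0603% to 12.6%, 2.38% with all reads). Matn4, another matrilin, had 72.04, 390.2 and 190.1 CPM in Cnmd-positive cells of plates 1, 3 and 4, against 0, 0.602 and 2.21 CPM in Cnmd-negative cells.

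Epyc, a proteoglycan known from growth plate cartilage, had 617, 205.2 and 191.3 CPM in Cnmd-positive cells of plates 1, 3 and 4 and 0 reads in Cnmd-negative cells. Its mean was 2605-fold a floor of 3 reads over the Cnmd-negative class, all on its shallowest plate (a plate mean of 0.1296 CPM). That floor covers the counting of reads and not the sampling of cells, so 2605 is no lower limit for the class. Epyc was held by 28.3% of Cnmd-positive cells (19.98% to 37.9%, 33.02% with all reads) and 0% of Cnmd-negative cells (0% to 8.41%, 0% with all reads), and a count of 0 was taken to allow 3 of the 42 Cnmd-negative cells (7.14%), somewhat under the end of that interval. Matn1, matrilin-1, also had 0 reads in Cnmd-negative cells but was not called, since plate 1 had 0 CPM of it in Cnmd-positive cells too. Of the members of the list outside the naming rule, Chad, Chadl, Comp, Mia, Pcolce2, Scrg1, Snorc and Ucma were higher. Their log2 folds ran from 1.03 for Comp, a protein that joins collagens to other matrix, to 4.99 for Mia, a secreted protein of cartilage. Without plate 1 these 2 folds were 0.55 and 2.90.

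The matrix proteins that were lower in Cnmd-positive cells were Cilp, Cilp2, Cytl1 and Vit. Cilp, cartilage intermediate layer protein, had 238.8, 412 and 269.96 CPM in Cnmd-positive cells of plates 1, 3 and 4, against 5823, 5368 and 3441 CPM in Cnmd-negative cells, a log2 fold of -3.99. The lowest Cnmd-negative plate lay above the highest Cnmd-positive plate. Cytl1, a small secreted protein of cartilage, had 660.2, 14525 and 7702 CPM in Cnmd-positive cells of plates 1, 3 and 4, against 21308, 31535 and 9846 CPM in Cnmd-negative cells, a log2 fold of -1.45, but not called without plate 1. Cilp2 had a log2 fold of -2.01. Fmod and Prelp, leucine-rich proteins that bind collagen fibrils, were not called: Fmod averaged 8141 ± 3542 CPM in Cnmd-positive cells against 5383 ± 4935 CPM in Cnmd-negative cells and Prelp 4169.6 ± 738 CPM in Cnmd-positive cells against 2949 ± 2456 CPM in Cnmd-negative cells, with overlapping plates. 

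**Figure D2:**
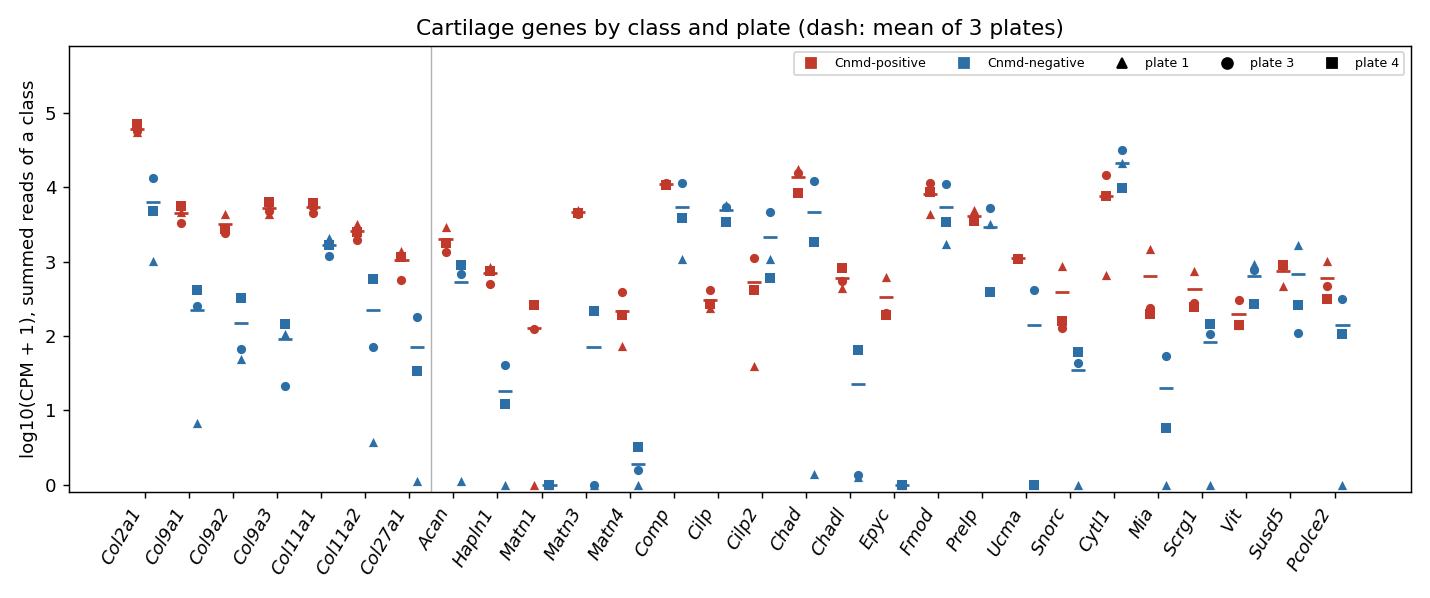
Summed reads of each class on each plate as log10(CPM + 1) on the y axis for the cartilage collagens (left of the grey line) and the other cartilage matrix genes with at least 10 CPM in either class, with Cnmd-positive values drawn left of Cnmd-negative ones, shapes for plates and dashes for the mean of 3 plates. The collagens of Cnmd-positive cells lie close together over plates and above those of Cnmd-negative cells, and Cilp, Cilp2, Cytl1 and Vit have their Cnmd-negative means above their Cnmd-positive means.

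Genes of the joint surface did not follow the collagens. Of 10 tested, 1 was higher in Cnmd-positive cells (Crispld1) and 2 were lower (Cilp and Vit). These make 10% and 20% of the list, against 15.9% and 4.79% of all genes. The median log2 fold was -1.93 against 0.38 for all genes (-1.30 without plate 1, -0.59 without plate 3 and -3.16 without plate 4, where 5 were lower). Prg4, which encodes the joint lubricant lubricin, had 3.96, 3020.4 and 3880.2 CPM in Cnmd-positive cells of plates 1, 3 and 4, against 10958, 12786 and 3808 CPM in Cnmd-negative cells. On plate 4 the classes were close, and it was not called (log2 fold -1.996, -1.27 without plate 1 and -2.97 without plate 4). In cells with at least 2000 genes and 200000 reads, 5 of them Cnmd-negative, the log2 fold turned to 1.41. Prg4 was held by 22.6% of Cnmd-positive cells (15.1% to 31.8%, 25.5% with all reads) and 35.7% of Cnmd-negative cells (21.6% to 51.97%, 35.7% with all reads). Clu, the secreted chaperone clusterin, had 0, 2960.0 and 4762 CPM in Cnmd-positive cells of plates 1, 3 and 4, against 8568, 15511 and 4059 CPM in Cnmd-negative cells and was not called either. Vit, the matrix protein vitrin, had a log2 fold of -1.73, although it was found in more Cnmd-positive cells (45.3% of Cnmd-positive and 26.2% of Cnmd-negative cells).

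Of 10 transcription factors of the chondrocyte lineage tested, 3 were higher in Cnmd-positive cells (Sox5, Foxa3 and Runx3) and 2 lower (Sox6 and Nfatc1), against 15.9% and 4.79% of all genes, with a median log2 fold of 0.94. Without plate 3 the median was 1.54 and 5 were higher. Sox9, the factor that turns on the cartilage program, had 2017, 670.0 and 873 CPM in Cnmd-positive cells of plates 1, 3 and 4, against 2866, 527 and 351 CPM in Cnmd-negative cells. The classes overlapped and Sox9 was not called (log2 fold -0.07, 0.81 without plate 1). Its Cnmd-negative reads were concentrated: 1 cell held 68.5% of them. By detection the classes differed, with Sox9 in 94.3% of Cnmd-positive cells (88.1% to 97.9%, 96.2% with all reads) and 52.4% of Cnmd-negative cells (36.4% to 67.996%, 57.1% with all reads). Sox5, a partner of Sox9, had 474, 298 and 312 CPM in Cnmd-positive cells of plates 1, 3 and 4, against 0.13, 279.3 and 112.2 CPM in Cnmd-negative cells, a log2 fold of 1.46, 0.64 without plate 1 and 2.79 without plate 3, but not called without plate 1. Sox6, the other partner, had 0, 44.3 and 42.2 CPM in Cnmd-positive cells of plates 1, 3 and 4, against 0.13, 177.3 and 97.4 CPM in Cnmd-negative cells, a log2 fold of -1.63, and was found in 20.8% of Cnmd-positive and 19.05% of Cnmd-negative cells. Runx3 had 2173, 180.3 and 248.3 CPM in Cnmd-positive cells of plates 1, 3 and 4, against 0.13, 0.0753 and 124.9 CPM in Cnmd-negative cells, a log2 fold of 4.35, 1.76 without plate 1 and 10.06 without plate 4.

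Growth plate signals gave 3 higher and 0 lower of 14 tested, or 21.4% higher, which is near the 15.9% of all genes, with a median log2 fold of 0.86 (0.27 without plate 4). Without plate 1, 6 were higher, and without plate 4, 5. Of all genes, 2843 of 9538 and 2153 of 8217 were then higher. The 3 genes were Pth1r, Npr2 and Gdf10. Pth1r, the receptor of parathyroid hormone and its related peptide, had 1231, 600.1 and 1102 CPM in Cnmd-positive cells of plates 1, 3 and 4, against 0, 112.2 and 689 CPM in Cnmd-negative cells, a log2 fold of 1.87, 1.08 without plate 1 and 4.00 without plate 4. Of the classes, 54.7% of Cnmd-positive cells (44.8% to 64.4%, 60.4% with all reads) and 21.4% of Cnmd-negative cells (10.3% to 36.8%, 23.8% with all reads) held Pth1r. Npr2, the receptor of C-type natriuretic peptide, had a log2 fold of 2.41, 1.56 without plate 3 and 3.13 without plate 4. Gdf10, a TGF-beta family ligand, had a log2 fold of 2.63, 1.13 without plate 1, 3.37 without plate 3 and 3.32 without plate 4. Wif1, a secreted Wnt inhibitor, averaged 2304 CPM in Cnmd-positive cells against 1674 CPM in Cnmd-negative cells and was not called.

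Genes of hypertrophic chondrocytes, the swollen cells at the bone end of the growth plate, were split. Of 10 tested, 2 were higher in Cnmd-positive cells (Panx3 and Runx3) and 3 were lower (Mmp13, Spp1 and Slc20a1), with a median log2 fold of -1.09. The called genes make 20% higher and 30% lower, against 15.9% and 4.79% of all genes, so the higher share is near that of all genes. Without plate 4 the median was 0.65 and 4 were higher. Panx3, a channel protein of maturing chondrocytes and osteoblasts, had 755, 174.8 and 699 CPM in Cnmd-positive cells of plates 1, 3 and 4, against 0.13, 0.903 and 29.01 CPM in Cnmd-negative cells, a log2 fold of 5.63, 4.78 without plate 1 and 8.26 without plate 4. Mmp13, the collagenase of the terminal zone, had 0, 88.9 and 254.3 CPM in Cnmd-positive cells of plates 1, 3 and 4, against 0.13, 1272 and 4357 CPM in Cnmd-negative cells, a log2 fold of -4.02, and was found in 2.83% of Cnmd-positive and 23.8% of Cnmd-negative cells. Osteoblasts express Mmp13, Spp1 and Panx3 as well. Runx2, which drives both hypertrophy and bone formation, averaged 129.1 ± 69.3 CPM in Cnmd-positive cells against 146.9 ± 191.7 CPM in Cnmd-negative cells and was not called.

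Of 20 genes of glycosaminoglycan synthesis tested, 6 were higher in Cnmd-positive cells (Slc26a2, Papss2, Slc35b2, Slc35d1, Ugdh and Xylt1) and 0 lower, which is 30% of the list against 15.9% of all genes, with a median log2 fold of 1.30 (0.44 without plate 4). Without plate 3 the median was 2.51 and 10 were higher. Papss2 makes the sulfate donor for the sugar chains of aggrecan, and had 704, 433 and 793 CPM in Cnmd-positive cells of plates 1, 3 and 4, against 134.02, 5.42 and 0.11 CPM in Cnmd-negative cells, a log2 fold of 3.76, 7.35 without plate 1 and 3.01 without plate 4. Papss2 was held by 57.5% of Cnmd-positive cells (47.6% to 67.1%, 58.5% with all reads) and 2.38% of Cnmd-negative cells (0.0603% to 12.6%, 9.52% with all reads). Slc35b2 carries that donor into the Golgi and had a log2 fold of 2.43, 1.27 without plate 1 and 4.64 without plate 4. Xylt1, which starts the chains, had 270.4, 231.8 and 254.8 CPM in Cnmd-positive cells of plates 1, 3 and 4, against 0.389, 84.2 and 117.4 CPM in Cnmd-negative cells, a log2 fold of 1.89, 1.26 without plate 1 and 2.54 without plate 4. Slc35d1, a carrier of nucleotide sugars, had a log2 fold of 1.601, 3.17 without plate 4.

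Of 23 genes of collagen processing, 8 were higher in Cnmd-positive cells (P4hb, P3h1, P3h3, Crtap, Plod1, Serpinh1, Loxl2 and Loxl3). Another 2 were lower (P4ha2 and P3h2). These make 34.8% and 8.70% of the list, against 15.9% and 4.79% of all genes. The median log2 fold was 0.19, below the 0.38 of all genes (0.94 without plate 4). Crtap, part of the complex that hydroxylates a proline of fibrillar collagens, had 691, 369 and 351 CPM in Cnmd-positive cells of plates 1, 3 and 4, against 0, 178.7 and 75.3 CPM in Cnmd-negative cells, a log2 fold of 2.46, 1.496 without plate 1 and 3.75 without plate 3. P3h2, a related hydroxylase, had 289, 69.6 and 88.7 CPM in Cnmd-positive cells of plates 1, 3 and 4, against 1850.2, 232.4 and 125.97 CPM in Cnmd-negative cells, a log2 fold of -2.30, -1.17 without plate 1. Of 18 secretory pathway genes, with a median log2 fold of 0.25, 2 disulfide isomerases were higher, Pdia4 (log2 fold 1.38) and Pdia6 (1.32), and Sar1a, a GTPase of the vesicles that leave the endoplasmic reticulum, was lower (log2 fold -1.12, -0.32 without plate 1, but not called without plate 1). The calls make 11.1% of that list higher and 5.56% lower, against 15.9% and 4.79% of all genes. Without plate 3, 6 genes of that list were higher, when 2100 of 8432 genes were higher in all. Hspa5, the main chaperone of the endoplasmic reticulum, averaged 1495 CPM in Cnmd-positive cells against 1259 CPM in Cnmd-negative cells and was not called.

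The genes with the highest folds that met the naming limits (at least 50 CPM, found in at least 20% of cells, and at least 1.5-fold apart on each plate) had few or no reads in Cnmd-negative cells. Beside Epyc and Matn4 they were Notum, C1qtnf3, Amotl1, Srpx, Sox8, Arap1, Syt8, Car12 and Hs3st3b1. Notum, a secreted enzyme that inactivates Wnt proteins, had 387, 416 and 479 CPM in Cnmd-positive cells of plates 1, 3 and 4 and 2 reads in all Cnmd-negative cells. Notum was held by 31.1% of Cnmd-positive cells (22.5% to 40.9%, 35.8% with all reads) and 2.38% of Cnmd-negative cells (0.0603% to 12.6%, 2.38% with all reads). C1qtnf3, a secreted protein of the C1q family known in growth plate cartilage, had 414, 319 and 217.6 CPM in Cnmd-positive cells. It had 0 reads in Cnmd-negative cells, and its mean was 2446-fold the floor of 3 reads given for Epyc, again no lower limit. Srpx (1180.0-fold that floor), Syt8 (1001-fold) and Car12 (945-fold) also had 0 reads in Cnmd-negative cells.

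Sox8, a close relative of Sox9, had 243.6, 139.3 and 150.4 CPM in Cnmd-positive cells of plates 1, 3 and 4 against 0, 0.0753 and 0.552 CPM in Cnmd-negative cells, and was found in 24.5% of Cnmd-positive and 2.38% of Cnmd-negative cells. Arap1 averaged 213.2 CPM in Cnmd-positive cells against 0.561 CPM in Cnmd-negative cells, with 25.5% of Cnmd-positive and 7.14% of Cnmd-negative cells holding it. Hs3st3b1, which adds sulfate to heparan sulfate, had 568, 80.7 and 75.9 CPM in Cnmd-positive cells of plates 1, 3 and 4, against 0.13, 6.17 and 0 CPM in Cnmd-negative cells. Amotl1, of the angiomotin family, had 596, 7.12 and 164.8 CPM in Cnmd-positive cells of plates 1, 3 and 4, against 0.389, 0 and 0.882 CPM in Cnmd-negative cells, and 1 cell held 46.8% of its Cnmd-positive reads. Its log2 fold of 7.496 was 1.72 in cells with at least 500 genes and 10000 reads. The 11 genes of this group were held by 20.8% to 31.1% of Cnmd-positive cells each, so most cells of the class held 0 reads of any given one at that depth.

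Genes lower in Cnmd-positive cells included 2 abundant matrix genes of bone. Of 17 osteoblast genes tested, 1 was higher in Cnmd-positive cells (Dlx5) and 2 lower (Col1a1 and Spp1). These make 5.88% and 11.8% of the list, against 15.9% and 4.79% of all genes. The median log2 fold of the list was -3.09 (-2.07 without plate 1 and -2.19 without plate 4), with -2.64, 0.39 and -3.07 on plates 1, 3 and 4. Without plate 3, 11 genes of the list were lower, and without plate 4, 3 were higher. Col1a1, the main chain of collagen I, had 0, 734 and 204.2 CPM in Cnmd-positive cells of plates 1, 3 and 4, against 43593, 883 and 22037 CPM in Cnmd-negative cells, a log2 fold of -6.14, -4.61 without plate 1 and -8.31 without plate 3. On plate 3 the classes were close, and 1 cell of plate 1 held 61.4% of the Cnmd-negative reads. Col1a1 was found in 15.1% of Cnmd-positive cells (8.88% to 23.4%, 21.7% with all reads) and 47.6% of Cnmd-negative cells (32.004% to 63.6%, 47.6% with all reads). Spp1, osteopontin, had 34.9, 548 and 967 CPM in Cnmd-positive cells of plates 1, 3 and 4, against 9459, 8051 and 42295 CPM in Cnmd-negative cells, a log2 fold of -5.27, and was found in 20.8% of Cnmd-positive cells (13.5% to 29.7%, 25.5% with all reads) and 45.2% of Cnmd-negative cells (29.8% to 61.3%, 47.6% with all reads). Ibsp, bone sialoprotein, averaged 3444 ± 3291 CPM in Cnmd-positive cells against 9846 ± 10048 CPM in Cnmd-negative cells and was not called.

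Dlx5, a homeobox factor of bone and cartilage, had 93.7, 67.97 and 106.1 CPM in Cnmd-positive cells of plates 1, 3 and 4, against 0, 35.2 and 27.7 CPM in Cnmd-negative cells, a log2 fold of 2.04, 1.44 without plate 1 and 2.77 without plate 3. Col1a2, the second chain of collagen I, had 136.3, 2908 and 2396 CPM in Cnmd-positive cells of plates 1, 3 and 4, against 35687, 2143 and 20099 CPM in Cnmd-negative cells. It was not called because plate 3 ran the other way, and it was found in 60.4% of Cnmd-positive and 59.5% of Cnmd-negative cells. Of 18 fibrous matrix genes, 2 were higher (Col12a1 and Col6a3) and 5 lower (Col1a1, Col5a2, Postn, Dcn and Fbn1), with a median log2 fold of -1.14. Over the 3 plates 11.1% of the list were higher and 27.8% lower, against 15.9% and 4.79% of all genes. Without plate 1, 8 were lower. Col12a1, which binds along fibrils, had 1886, 659.5 and 874 CPM in Cnmd-positive cells of plates 1, 3 and 4, against 0, 15.8 and 150.3 CPM in Cnmd-negative cells, a log2 fold of 4.34, 3.19 without plate 1 and 7.16 without plate 4. Postn, a matrix protein of periosteum, had 0, 0.0726 and 0.108 CPM in Cnmd-positive cells of plates 1, 3 and 4, against 0.13, 79.9 and 16.1 CPM in Cnmd-negative cells, and 1 cell held 87.6% of its Cnmd-negative reads. Fbn1, a microfibril protein, had a log2 fold of -3.31, -0.72 without plate 1, -4.16 without plate 3 and -4.20 without plate 4, but not called without plate 1. Sparc, a collagen-binding protein of bone and cartilage, was high in both classes, with 29718 ± 1707 CPM in Cnmd-positive cells against 16805 ± 1537 CPM in Cnmd-negative cells, and was not called.

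Of 10 marrow stroma genes tested, 4 were lower in Cnmd-positive cells (Cxcl12, Lepr, Ebf1 and Csf1) and 1 higher (Foxc1), against 4.79% and 15.9% of all genes, with a median log2 fold of -3.66 (0.01 without plate 3, where 2 were lower). Cxcl12, the chemokine that holds blood stem cells in marrow, had 0, 2.32 and 65.8 CPM in Cnmd-positive cells of plates 1, 3 and 4, against 0.389, 424 and 97.95 CPM in Cnmd-negative cells, a log2 fold of -2.89, -0.57 without plate 3 and -6.62 without plate 4, but not called without plate 3. Ebf1, a transcription factor of marrow stroma, had 0, 5.20 and 0.569 CPM in Cnmd-positive cells of plates 1, 3 and 4, against 0.13, 122.4 and 119.7 CPM in Cnmd-negative cells, a log2 fold of -4.80, -5.57 without plate 3 and -4.11 without plate 4. Csf1, the growth factor of macrophages and osteoclast precursors, had 0, 4.28 and 0.407 CPM in Cnmd-positive cells of plates 1, 3 and 4, against 0.13, 69.9 and 230.8 CPM in Cnmd-negative cells, a log2 fold of -5.30, -6.60 without plate 3 and -3.52 without plate 4. Lepr, the leptin receptor, had 3 reads in Cnmd-positive cells, all on plate 4, and 784 in Cnmd-negative cells, nearly all on plate 3. On plate 4 its Cnmd-negative reads numbered 2, and its log2 fold was -0.18 without plate 3. These genes were held by few cells of either class: Cxcl12 by 7.55% of Cnmd-positive and 19.05% of Cnmd-negative cells, Ebf1 by 4.72% of Cnmd-positive and 16.7% of Cnmd-negative cells and Csf1 by 1.89% of Cnmd-positive and 11.9% of Cnmd-negative cells.

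Complement and class I presentation had 3 lower genes (Serping1, H2-D1 and B2m) and 0 higher of 13 tested, with a median log2 fold of -1.83. This is 23.1% lower and 0% higher, against 4.79% and 15.9% of all genes. Without plate 4, 5 were lower. Serping1, the C1 inhibitor, had 0, 1.52 and 0.542 CPM in Cnmd-positive cells of plates 1, 3 and 4, against 504, 354 and 14.6 CPM in Cnmd-negative cells, a log2 fold of -7.43, -6.51 without plate 1, and was found in 3.77% of Cnmd-positive and 21.4% of Cnmd-negative cells. H2-D1, a class I heavy chain, had 0, 417 and 308 CPM in Cnmd-positive cells of plates 1, 3 and 4, against 1843, 2481 and 1067 CPM in Cnmd-negative cells, a log2 fold of -2.89, -2.29 without plate 1. B2m, the light chain, had 12.8, 23.9 and 44.5 CPM in Cnmd-positive cells of plates 1, 3 and 4, against 210.2, 181.2 and 55.8 CPM in Cnmd-negative cells, a log2 fold of -2.42, -1.76 without plate 1 and -3.35 without plate 4. The lowest Cnmd-negative plate lay above the highest Cnmd-positive plate for these 3 genes, for B2m by little (55.8 against 44.5 CPM). They had been called with 1 sign on each plate, and the share of all genes that separate so is not given here. Reads of H2-D1 and H2-K1 cannot be assigned with certainty, since the genes are near-identical.

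Beside Serping1, Spp1 and Cilp, the genes with the lowest folds under the naming limits included Palld, Ckb, Ptprd, Lgals1, Ptgis, Sgms2, Kazald1 and Rflnb. Ckb, brain-type creatine kinase, had 0, 4.72 and 40.7 CPM in Cnmd-positive cells of plates 1, 3 and 4, against 844, 197.9 and 205.7 CPM in Cnmd-negative cells, a log2 fold of -4.69, -3.10 without plate 1 and -7.28 without plate 4. Ptgis, which makes prostacyclin, had 0.0775, 22.9 and 63.4 CPM in Cnmd-positive cells of plates 1, 3 and 4, against 771, 297 and 334 CPM in Cnmd-negative cells, a log2 fold of -3.98, -2.84 without plate 1 and -5.42 without plate 4. Lgals1, galectin-1, had 0, 19.3 and 10.9 CPM in Cnmd-positive cells of plates 1, 3 and 4, against 137.0004, 30.3 and 374 CPM in Cnmd-negative cells, a log2 fold of -4.04, -5.32 without plate 3 and -2.99 without plate 4. Sgms2, a sphingomyelin synthase, had 0, 156.4 and 88.2 CPM in Cnmd-positive cells of plates 1, 3 and 4, against 2883, 419 and 533 CPM in Cnmd-negative cells, a log2 fold of -3.95, -1.95 without plate 1 and -5.24 without plate 3. Palld, an actin-bundling protein, averaged 0.896 CPM in Cnmd-positive cells against 198.1 CPM in Cnmd-negative cells and was found in 1.89% of Cnmd-positive and 21.4% of Cnmd-negative cells. Of the others, log2 folds were -4.30, -3.00 without plate 1 and -5.90 without plate 4 for Ptprd, a receptor phosphatase, -3.67, -1.74 without plate 1 and -4.59 without plate 3 for Kazald1, and -3.35, -2.19 without plate 1 and -4.06 without plate 3 for Rflnb, a filamin-binding protein. Of the Cnmd-negative reads, 1 cell held 71.96% for Kazald1 and 63.2% for Palld.

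By the share of cells that held a gene at 50000 reads, the same comparison was more one-sided. Of 4776 genes found in at least 10% of cells of either class, 5.7% were found in at least 25 percentage points more Cnmd-positive cells, with the same sign on plates 3 and 4. The 7 genes found in at least 25 points fewer (0.147%) included Ckb, Col1a1, Ptgis, Dpysl3, Sgms2 and Lgals1, and all but Dpysl3 were lower by level too. Cnmd-positive cells held more genes at equal depth, as given above, and the part of that difference in these counts was not tested. All 7 cartilage collagens and 15 of 21 cartilage matrix proteins were among the genes found in more Cnmd-positive cells.

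**Figure D3:**
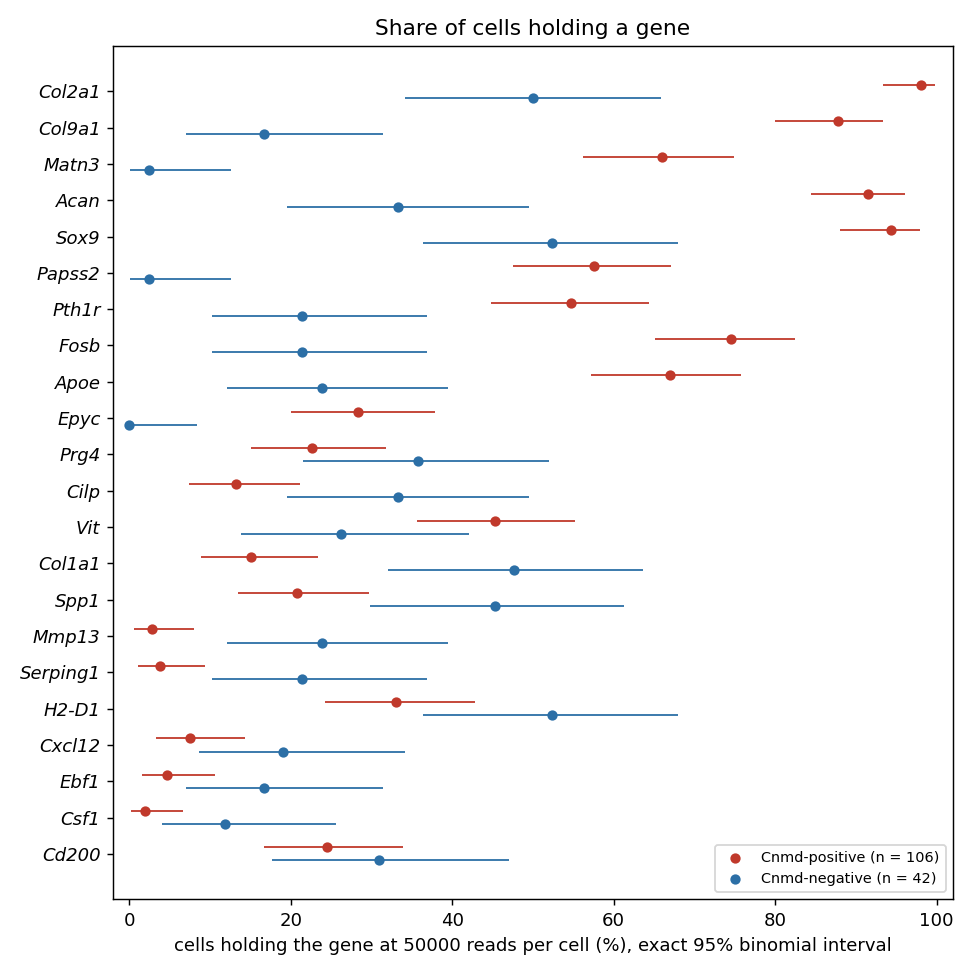
Share of cells holding each of 22 genes at 50000 reads per cell on the x axis, in percent, with the Cnmd-positive class above the Cnmd-negative class in each row and bars for exact 95% binomial intervals. The cartilage genes Col2a1, Col9a1, Matn3, Acan and Sox9 are held by most Cnmd-positive cells, and Col1a1, Mmp13 and Serping1 by larger shares of Cnmd-negative cells.

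Cnmd-negative cells were of more than 1 kind by the fixed markers. Of 8 osteoblast markers (Bglap, Bglap2, Ibsp, Dmp1, Sp7, Ifitm5, Col1a1 and Phex), at least 4 were held by 1 Cnmd-positive cell (0.943%, 0.0239% to 5.14%) and 8 of 42 Cnmd-negative cells (19.05%, 8.601% to 34.1%). Of those 8, 1, 2 and 5 lay on plates 1, 3 and 4. At least 2 osteoblast markers were held by 17 Cnmd-negative cells, at least 2 of 7 marrow stroma markers by 6 and at least 4 cartilage markers by 23. The cartilage and osteoblast sets met in few cells: 3 held at least 4 cartilage and at least 2 osteoblast markers. The stroma set was not separate from the osteoblast set. Of the 6 cells at the stroma limit, 5 also held at least 2 osteoblast markers, and all 6 lay on plate 3. A further 5 Cnmd-negative cells reached none of these limits. The limits of 2 were not particular to this class. A Cnmd-positive cell held 0 to 5 osteoblast markers (median 1) and 0 to 2 stroma markers (median 1). A Cnmd-negative cell held 0 to 7 (median 1) and 0 to 5 (median 1). Reads of Bglap and Bglap2 cannot be told apart with certainty.

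Some genes outside the cartilage markers also split along this line, and others did not. Of the 23 Cnmd-negative cells with at least 4 cartilage markers, 15 held Prg4, 13 Cilp and 16 Cytl1, against 0, 1 and 1 of the 19 cells with under 4. Of the same 23 cells, 6 held Spp1 and 1 held Mmp13, against 13 and 9 of the 19 cells with under 4. Prg4, Cilp and Cytl1 were thus found mostly in Cnmd-negative cells with cartilage markers, and Spp1 and Mmp13 mostly in the others. H2-D1 (13 of 23 against 9 of 19), Cd200 (6 against 7) and Ebf1 (3 against 4) showed no such split. The cut at 4 markers is a point on a range, with 2 cells holding 3 and 4 cells holding 4. The cells with at least 4 markers had medians of 754298 gene reads and 1385 genes, and those with under 4 had 345127 gene reads and 1379 genes. On plates 1, 3 and 4 lay 2, 14 and 7 of the former and 6, 4 and 9 of the latter. The part of plate in this split was not tested.

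**Figure D4:**
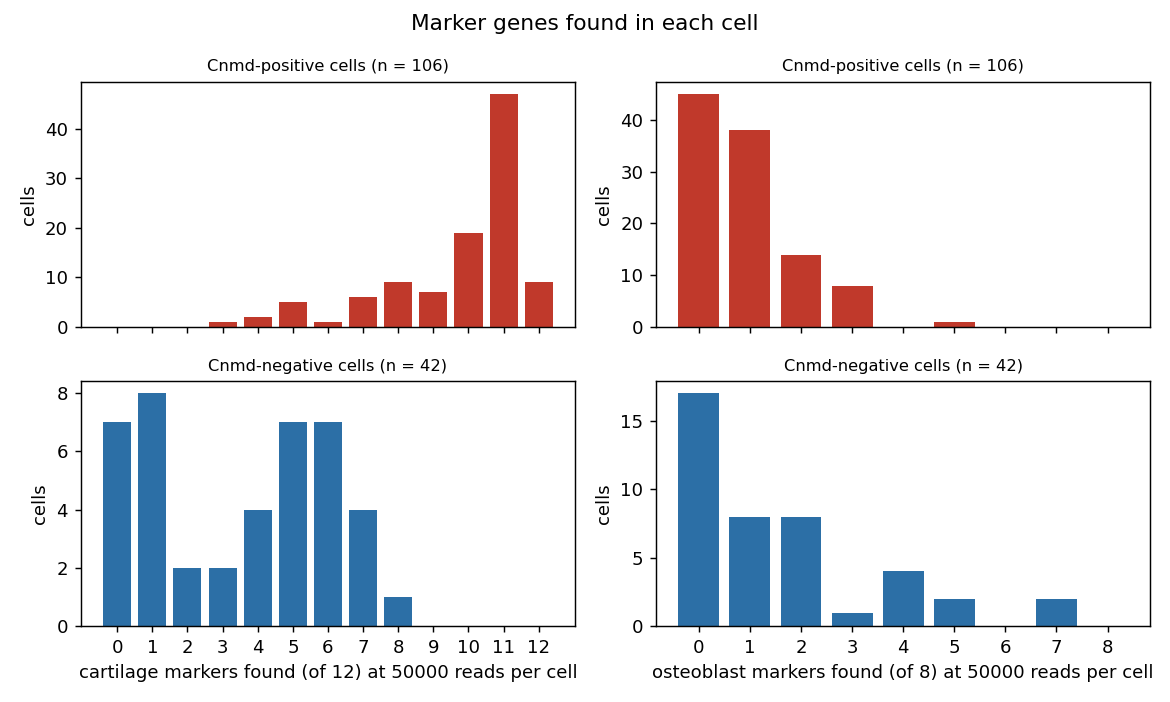
Number of cells (y axis) by the number of cartilage markers (left, of 12 without Cnmd) and osteoblast markers (right, of 8) found at 50000 reads per cell, with Cnmd-positive cells in the upper panels and the 42 Cnmd-negative cells in the lower ones. Cnmd-positive cells peak at 11 cartilage markers, while Cnmd-negative cells spread over 0 to 8, with 15 cells at 0 or 1 and 22 cells at 4 to 7.

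The immediate early and heat shock genes, which respond to signals and to stress, had 7 higher members of 21 tested (Fosb, Fosl2, Jun, Jund, Atf3, Dnajb1 and Hsp90aa1) and 0 lower, which is 33.3% of the list against 15.9% of all genes, with a median log2 fold of 1.11. Without plate 3 the median was 1.85 and 11 were higher, and without plate 4, 2 were lower. Jun had 4986, 6087 and 6871 CPM in Cnmd-positive cells of plates 1, 3 and 4, against 36.2, 2050.5 and 2357 CPM in Cnmd-negative cells, a log2 fold of 2.01, and was found in 86.8% of Cnmd-positive cells (78.8% to 92.6%, 88.7% with all reads) and 45.2% of Cnmd-negative cells (29.8% to 61.3%, 52.4% with all reads). Fosb had 1385, 261.02 and 409 CPM in Cnmd-positive cells of plates 1, 3 and 4, against 0.259, 87.3 and 289.7 CPM in Cnmd-negative cells, a log2 fold of 2.44, 0.83 without plate 1 and 4.20 without plate 4, but not called without plate 1, and was found in 74.5% of Cnmd-positive and 21.4% of Cnmd-negative cells. Dnajb1, a co-chaperone, had a log2 fold of 2.27. Junb averaged 4198 CPM in Cnmd-positive cells against 2887 CPM in Cnmd-negative cells and Dusp1 6591 CPM in Cnmd-positive cells against 8875 CPM in Cnmd-negative cells, and neither was called. Cells were broken out of bone before the sort, and the part of that handling in either class was not tested.

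Of 19 glycolysis and hypoxia genes, 5 were higher in Cnmd-positive cells (Slc2a1, Gapdh, Eno1, Ldha and Ddit4) and 0 lower, which is 26.3% of the list against 15.9% of all genes, with a median log2 fold of 1.12. Without plate 1 the median was 0.51 and 3 were lower, and without plate 3, 9 were higher. Ldha, which makes lactate, had 5208, 2893 and 2654 CPM in Cnmd-positive cells of plates 1, 3 and 4, against 996, 1892 and 1848 CPM in Cnmd-negative cells, a log2 fold of 1.18, 0.57 without plate 1, but not called without plate 1. Gapdh had 377, 623 and 722 CPM in Cnmd-positive cells of plates 1, 3 and 4, against 149.8, 254.5 and 241.3 CPM in Cnmd-negative cells, a log2 fold of 1.41. Slc2a1, the glucose carrier GLUT1, averaged 90.7 CPM in Cnmd-positive cells against 10.5 CPM in Cnmd-negative cells and was found in 12.3% of Cnmd-positive and 4.76% of Cnmd-negative cells. Pkm averaged 1301 CPM in Cnmd-positive cells against 1516 CPM in Cnmd-negative cells and was not called.

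Secreted regulators gave few calls, to be read against 15.9% higher and 4.79% lower among all genes. Of 9 angiogenesis regulators tested, beside Cnmd's own role, Angptl2 was higher in Cnmd-positive cells (log2 fold 3.51, 1.22 without plate 1 and 6.504 without plate 3) and Cxcl12 lower, with a median of -1.60 (-0.28 without plate 3 and -0.79 without plate 4). Without plate 1, 4 of them were lower. Thbs1, a matrix inhibitor of vessel growth, averaged 1326 CPM in Cnmd-positive cells against 888 CPM in Cnmd-negative cells and was not called. Vegfa, the main growth factor of vessels, averaged 1.204 CPM in Cnmd-positive cells against 6.91 CPM in Cnmd-negative cells and was below the limit of the test. Of 13 Wnt and BMP antagonists and Id targets, Chrdl1, a BMP antagonist, was higher (log2 fold 2.77, 1.46 without plate 1 and 7.64 without plate 4), as was Id2 (2.70, 1.18 without plate 1 and 5.31 without plate 3), and Id3 was lower (-1.66, -0.47 without plate 1 and -2.41 without plate 4, but not called without plate 1). The median of that list was 1.21 (2.73 without plate 3 and 0.14 without plate 4), and without plate 1, 7 were higher. Of 7 genes of the IGF system, Igf2r was higher, with 199.6, 122.1 and 89.3 CPM in Cnmd-positive cells of plates 1, 3 and 4, against 0.13, 1.05 and 1.54 CPM in Cnmd-negative cells, as was Igf1 (log2 fold 1.37, 4.604 without plate 3), and the median was 0.19 (4.46 without plate 3). Of 10 matrix proteases and inhibitors, with a median log2 fold of -0.75, Mmp13 was lower and 0 were higher, against 2 higher without plate 1 and 3 lower without plate 3. Apoe, an apolipoprotein and the called one of 5 adipocyte genes (median log2 fold -0.74), had 1689.7, 3667 and 6634 CPM in Cnmd-positive cells of plates 1, 3 and 4, against 0, 3535 and 988 CPM in Cnmd-negative cells, a log2 fold of 1.41, 3.07 without plate 3 and 0.60 without plate 4, but not called without plate 4, and Pparg had 0 reads in both classes.

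Of the antigens of the sort, Cd200 was lower in Cnmd-positive cells, with 33.5, 217.6 and 219.3 CPM in Cnmd-positive cells of plates 1, 3 and 4, against 859, 271.9 and 387 CPM in Cnmd-negative cells, a log2 fold of -1.68, -0.59 without plate 1 and -2.29 without plate 3, but not called without plate 1. It was found in 24.5% of Cnmd-positive cells (16.7% to 33.8%, 32.1% with all reads) and 30.95% of Cnmd-negative cells (17.6% to 47.1%, 35.7% with all reads). Itgav averaged 18.4 ± 27.3 CPM in Cnmd-positive cells against 19.04 ± 28.8 CPM in Cnmd-negative cells and was not called. RNA of a surface protein need not follow its amount on the cell. Of 20 cell cycle genes, at least 4 were held by 5 Cnmd-positive cells (4.72%, 1.55% to 10.7%) and 1 Cnmd-negative cell (2.38%, 0.0603% to 12.6%), and 1 of 11 tested was higher (Mcm5, found in 3.77% of Cnmd-positive and 0% of Cnmd-negative cells), with a median log2 fold of 2.97 (3.67 without plate 1, where 9 were higher, and 1.82 without plate 4). The highest numbers of these genes in a Cnmd-positive cell were 15 and 12, and the highest in a Cnmd-negative cell was 4. Of the 11 tested, 9.09% were higher, against 15.9% of all genes.

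Markers of blood and endothelial cells were low in both classes, and sums of the other sets ran higher in at least 1 class. Summed over the list, blood cell markers had 0 to 28.1 CPM by plate in Cnmd-positive cells and 0 to 114.3 CPM in Cnmd-negative cells, with Fcer1g at 0 reads in both. Endothelial markers had 0 to 7.33 CPM in Cnmd-positive and 0 to 0.389 CPM in Cnmd-negative cells, with Cdh5 and Tek at 0. Red cell markers had 0 to 0.774 CPM in Cnmd-positive cells and 681, 3.46 and 0.441 CPM in Cnmd-negative cells of plates 1, 3 and 4, and 1 cell held all reads of Hba-a2 that plate 1 had. Mural cell markers had 316 to 377 CPM in Cnmd-positive and 0.13 to 748 CPM in Cnmd-negative cells, nearly all from Cspg4, a proteoglycan that chondrocytes express too, with Myh11, Rgs5 and Mcam at 0. Tendon and fibroblast markers had 55.3 to 919 CPM in Cnmd-positive and 0.389 to 1400 CPM in Cnmd-negative cells, mostly from Thbs4, with Dpp4 and Clec3b at 0. Nerve sheath and muscle markers had 50.9 to 200.8 CPM in Cnmd-positive and 0 to 68.4 CPM in Cnmd-negative cells, mostly from S100b, which chondrocytes express, with Ckm at 0. Only 1 blood, 0 endothelial, 2 red cell, 1 mural, 4 tendon or fibroblast and 1 nerve or muscle gene reached the limit for a call, and 0 of them were called.

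The same values of Cnmd that chose the members also varied among the Cnmd-positive cells, and how other genes varied beside them is described here without a test. Spearman's rho with Cnmd, as a description over cells that share plates and depth, was 0.65 over all of them for Col9a1, 0.63 for Col9a2, 0.62 for Matn3, 0.58 for Col11a2 and 0.45 for Epyc. It was 0.43 for Col2a1, 0.42 for Acan and 0.27 for Sox9. For comparison, rho with the number of genes per cell was 0.34 and with gene reads 0.28. Chad, a leucine-rich matrix protein held by nearly all these cells (97.2% of Cnmd-positive and 50% of Cnmd-negative cells), had -0.05. Prg4 had -0.48, with -0.62 over 50 cells of plate 3 and -0.30 over 49 cells of plate 4. Col1a1 had -0.23. On plate 3 and plate 4 alone, Col9a1 had 0.71 and 0.60, and the number of genes per cell 0.28 and 0.48. On plate 4 Col9a2 (0.45), Epyc (0.40), Acan (0.40) and Col2a1 (0.40) lay below that value for genes per cell. Col11a2 (0.59) and Matn3 (0.52) lay above it. On plate 3 Col9a2, Epyc, Acan and Col2a1 had 0.76, 0.51, 0.41 and 0.47.

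**Figure D5:**
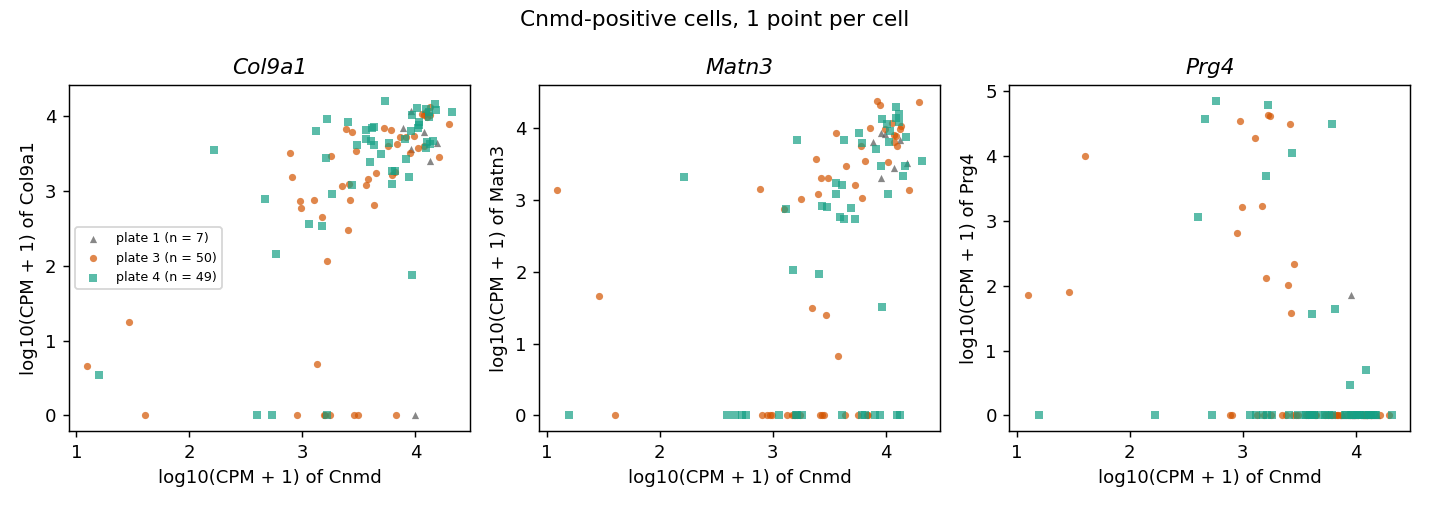
Level of Col9a1, Matn3 and Prg4 (y axis) against that of Cnmd (x axis) as log10(CPM + 1) in each Cnmd-positive cell, with colours and shapes for plates. Cnmd chose these cells, so the points are a description: rho with Cnmd is 0.65 for Col9a1, 0.62 for Matn3 and -0.48 for Prg4.

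For some of the genes named above, other annotated genes overlap the exons, and reads of the pair cannot be told apart without strand, whose use in counting is not given in the sources used here. These are Epyc, Notum, Srpx, Sox8, Arap1, Matn4, Chadl, Mia, Spp1, Ptprd, Ptgis, Col9a3, Prelp, Sox5, Npr2, Pth1r, Fbn1, Crispld1, Prg4, P3h2, Pdia4, Pdia6, Itgav, Jun, Junb, Dusp1, Gapdh, Slc2a1, Runx2, Pkm, Thbs1, Loxl2, Loxl3, Jund, Slc20a1 and Ugdh.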

How the data were processed

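Single cells were sequenced by SmartSeq2. The deposited table holds RSEM expected counts per gene symbol. The submitters' processing notes name bcl2fastq 2.18, STAR 2.4, RSEM 1.2.21 and the build GRCm38.p6, and the annotation release is not given in the sources used here. Values were rounded to whole numbers (13.3% of those above 0 were not whole). Of its columns, 287 of 2 months were matched to samples through the age, plate, well and index sequences in their names, and 384 were not used. Among 55604 gene rows, 626 repeats of a symbol were not tested and 28 rows named by 5 digits were not named. Totals leave out the 92 rows of ERCC spike-ins.

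Cells passing numbered 154, of which 106 were Cnmd-positive and 42 Cnmd-negative. The members and gene lists were chosen with earlier results of these data known. Genes named were Cnmd, Col9a1, Col9a2 and Acan, the 12 with the highest and the 12 with the lowest folds under the limits given above, up to 4 called and 2 uncalled members of each list, and Sox9, Runx2, Prg4, Cd200, Itgav, Cxcl12, Vegfa and Col2a1, with the other cartilage matrix genes added after their values were seen. A few genes under this rule are not reported here. No doublet caller was run, since cells were sorted into wells. The rule was run on simulated reads drawn from the mean profile of each plate. These had no variation between cells, so the run cannot show how often the rule errs in these data. Summed gene reads were 91097535 in Cnmd-positive and 30066420 in Cnmd-negative cells. Alternatives were the summary per class, plates left out, plate weights, Cnmd limit, cell filter, depth, scaling, low values and pseudocount. Added after seeing the data were the share-of-cells count and equal cell numbers. TMM factors came from edgeR 4.0.16 (R 4.3.3), used for nothing else, and the other steps ran in Python 3.11.15 with pandas 2.3.3, numpy 2.4.6, matplotlib 3.10.9 and scipy 1.17.1. Genes were matched to GENCODE M21 by symbol (54157 of 55604).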

Additional observations from a re-analysis of the deposited data

How the results depend on the processing

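The counts of genes called moved with the number of plates and cells used. Genes higher in Cnmd-positive cells numbered 1442, and 2100 to 2843 with 1 plate left out, 3618 with all cells of a class summed over plates (no replicate block), 3651 in cells with at least 2000 genes and 200000 reads, 822 from 50 CPM and 848 with equal numbers of cells per plate. Genes lower numbered 434, and 1088, 948 and 920 without plates 1, 3 and 4, 2509 with no replicate block and 693 in cells with at least 500 genes and 10000 reads. With fewer plates the demand of 1 sign on each is met more easily. Each plate holds both classes, and the main rule uses that pairing only by asking for 1 sign on each plate. The fold itself is a ratio of class means over plates, so the plate with the highest CPM weighs most in it. The value without plates is the one with no replicate block. The medians of the cartilage collagens and of the other cartilage matrix proteins stayed above 0 under the 17 alternatives run for each. The osteoblast median turned to 1.31 in cells with at least 2000 genes and 200000 reads, a setting that left 0 cells on plate 1 and 2 and 3 Cnmd-negative cells on plates 3 and 4. At the same setting log2 folds turned for Ptprd (3.09), Sox6 (6.26), Vit (7.64), Ebf1 (1.02), Cxcl12 (5.77), Postn (0.20), Fbn1 (3.12) and Sar1a (0.65), and Igf1 turned to -0.42 at the wider filter. In cells with at least 2000 genes and 200000 reads, Prg4, which was not called, turned too (1.41), and Palld moved to -0.25. Of 2295 values of named genes under alternatives, 96 changed sign, 26 of them in cells with at least 2000 genes and 200000 reads. Of the 96, 9 were of called genes, and they are the 8 and Igf1 given above. Of the others, 2080 kept their sign and moved by less than the spread between plates. Depth limits the Cnmd-negative class most: 3 reads over it make up to 0.1296 CPM as a mean of plates, and 3 cells 7.14%, against 0.0775 CPM and 2.83% in the Cnmd-positive class.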
